A study of Mus musculus with 6 samples.

Results

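The Nodal pathway was examined through 9 genes: the ligands Nodal and Gdf3, the secreted inhibitors Lefty1 and Lefty2, the coreceptor Tdgf1, the receptors Acvr1b and Acvr2b, and the signal transducers Smad2 and Smad7. Every probe set of the array that its annotation assigned to exactly 1 gene, that gene being one of these, was taken, whatever its signal. This gave 16 of 45101 probe sets, and 9 of the 18194 genes named in that way. The arrays compared mouse embryonic stem cells of 2 genotypes, Gsk-3a-/-; Gsk-3b-/- (double knockout, DKO) and wild-type (E14K), with 3 arrays each. Gsk-3 is the kinase that, among other roles, marks beta-catenin for destruction in the Wnt pathway. Both genotypes were cultured on gelatin with no feeder cells, in high-glucose DMEM with 15% serum, LIF (ESGRO, 1000 units/ml), 2 mM glutamine, non-essential amino acids, pyruvate, antibiotics and 2-mercaptoethanol, and neither received a further agent. The labels do not say whether the DKO cells are 1 clone or whether replicates are separate cultures. An effect of losing Gsk-3 and any other difference between the lines cannot be told apart, and p-values cover the spread among these samples alone, part of which may be technical.

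Nodal is a secreted ligand of the TGF-beta superfamily. It binds a complex of a type I receptor (Acvr1b), a type II receptor (Acvr2b or Acvr2a) and the coreceptor Tdgf1, also called Cripto, and the receptors then phosphorylate Smad2 and Smad3, which enter the nucleus with Smad4 and bind DNA with partners such as Foxh1. Lefty1 and Lefty2 are both targets and extracellular inhibitors of this signal, which closes a negative feedback loop, and Smad7 inhibits the receptors from within the cell. In the embryo the pathway patterns the epiblast, and in pluripotent cells Nodal and its Lefty inhibitors are expressed without differentiation.

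Array medians were intensities of 10 to 11. Replicate 3 of both genotypes stood apart in its spike-in controls, with a mean log2 signal of 10.18 and 10.53 against 1.64 to 1.85 on the other 4 arrays, so it was treated as a batch that holds both genotypes. The targeted gene Gsk3a read 145, 135 and 66 in DKO and 403, 238 and 239 in wild-type cells, with a log2 difference of -1.38 that did not pass (limma, adjusted p = 0.0942; adjusted p = 0.00646 when blocked on replicate number). Of the 5 tested probe sets of Gsk3b, 0 passed by limma, 0 had an unadjusted p under 0.05, and 0 passed with the block or without moderation. Their position relative to the deleted parts is unknown, and probes beyond those parts check nothing. Of 11 tested markers of embryonic stem cells 0 passed by limma (0 at an unadjusted p under 0.05, 0 with the block, 0 without moderation). Their summed intensity was 28794 to 31871 in DKO and 29984 to 31556 in wild-type cells.

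Among the 9 genes, the inhibitor Lefty1 fell below the detection filter in DKO cells, while Nodal, the ligand it blocks, differed by 0.0063 log2 units (95% confidence interval -0.56 to 0.57). A probe set was tested if it reached a log2 intensity of 4 (intensity 16) on at least 3 of the 6 arrays. Of the 16 member probe sets 13 passed this filter, with at least 1 for each of the 9 genes; 1 of Acvr1b and 2 of Acvr2b were too dim. By limma, with p-values adjusted over all 20841 tested probe sets, 1 of the 13 passed at 0.05, that of Lefty1, where 3.24% of all tested probe sets passed. In 5 of the 13, every array of one genotype lay above every array of the other (16.7% of all tested probe sets). With the replicate number as a block 3 passed, Lefty1 and Lefty2 lower and Acvr1b higher in DKO, against 9.57% of all. The median log2 difference of the 13 was -0.09, and that of all tested probe sets -0.02.

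**Figure D1:**
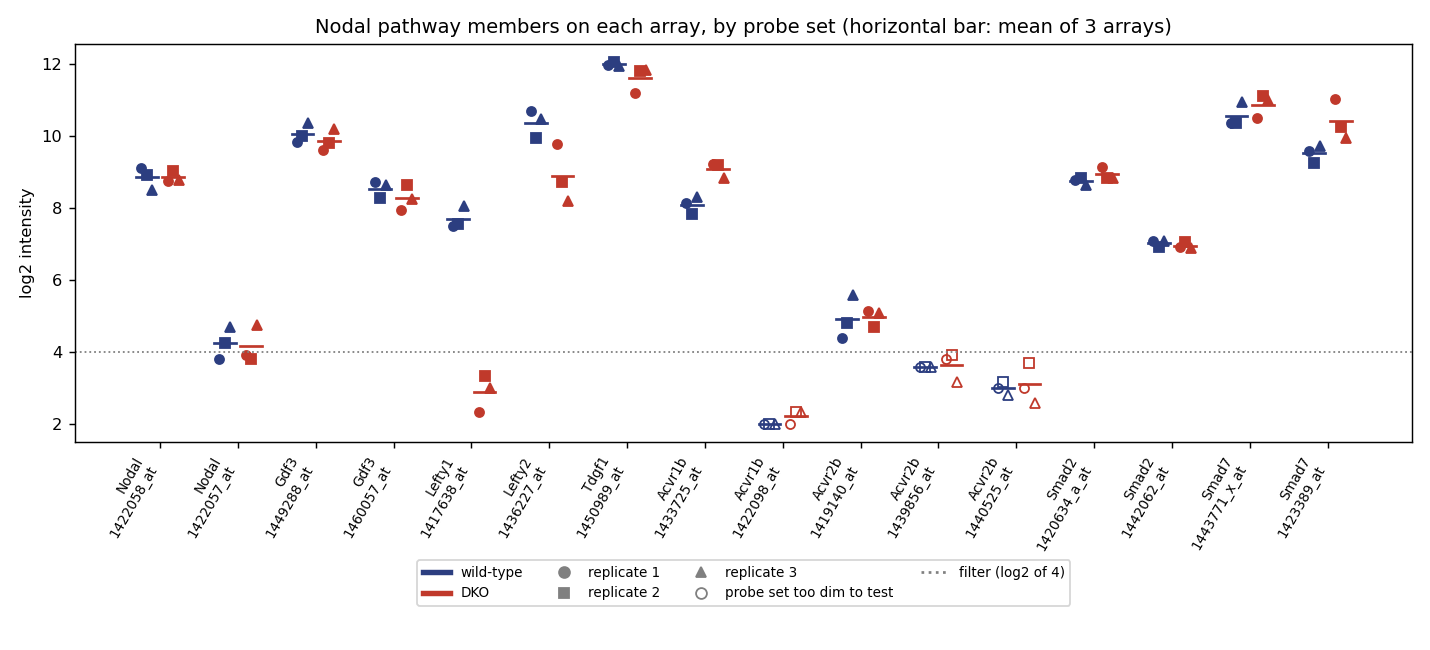
Log2 intensity (y axis) of the 16 member probe sets (x axis) on each array, wild-type in blue and DKO in red, with a marker shape for each replicate number and a bar for the mean of 3 arrays; open markers are the 3 probe sets too dim to test, and the dotted line is the filter at 4. The DKO arrays of Lefty1 lie at 2.32 to 3.32, under the filter, and its wild-type arrays at 7.49 to 8.07.

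The ligand Nodal did not differ detectably between the genotypes. Its brighter probe set (1422058_at) read intensities of 434, 522 and 441 in DKO and 551, 489 and 366 in wild-type cells. The arrays of the 2 genotypes overlapped fully, and the log2 difference, DKO minus wild-type, was 0.0063 with a 95% confidence interval of -0.56 to 0.57 (limma, adjusted p = 0.997). The other probe set (1422057_at) read near the filter, at 15, 14 and 27 against 14, 19 and 26 (difference -0.10, interval -0.86 to 0.67, adjusted p = 0.962). Neither probe set kept 1 sign over the 3 same-numbered pairs of arrays. Gdf3, a ligand of the same superfamily that shares the Tdgf1 coreceptor, was measured by a pair of probe sets. The brighter (1449288_at) read 781, 893 and 1187 in DKO and 918, 1023 and 1320 in wild-type cells. DKO was lower in each same-numbered pair, by 0.23, 0.20 and 0.15 log2 units, but the arrays overlapped and the difference of -0.19 (interval -0.79 to 0.41) did not pass (adjusted p = 0.869). The second (1460057_at) had a difference of -0.26 (interval -0.87 to 0.34, adjusted p = 0.809).

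Lefty1, which binds Nodal and its coreceptor and blocks signalling, fell in DKO cells. Its single probe set (1417638_at) read 5, 10 and 8 in DKO and 180, 189 and 269 in wild-type cells. Every DKO array lay below the filter and every wild-type array well above it. The log2 means were 2.88 ± 0.51 against 7.71 ± 0.32 (SD, n = 3), a fitted difference of -4.83 (SE 0.31, limma, adjusted p = 0.000122). Because the DKO arrays were dim, the fold is a limit, set by raising them to the filter: wild-type cells were at least 13.1-fold higher. It passed in all 6 limma fits that each left out 1 array, with a highest adjusted p of 0.00372, and within replicates 1 and 2 alone (difference -4.71, adjusted p = 0.00152). Lefty1 met the filter through its wild-type arrays alone, and these fits kept the probe sets chosen on all 6 arrays. Their p-values rest on the dim DKO values as read. With a pseudocount of 16, which compresses dim values, the difference was -3.26. Among the alternatives run, Lefty1 missed the threshold only when the variances were not moderated across probe sets (adjusted p = 0.0656), where 31 probe sets of the whole array passed.

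Lefty2, the second Lefty inhibitor, was also lower on every DKO array, but by less. Its probe set (1436227_at) read 884, 420 and 295 in DKO and 1679, 992 and 1418 in wild-type cells. The groups did not overlap, and the spread was wide: the highest DKO array stood close to the lowest wild-type array. The difference was -1.48 (SE 0.41, interval -2.40 to -0.56), 2.78-fold, and did not pass (adjusted p = 0.111). It passed when blocked on replicate number (limma, adjusted p = 0.00812), where the SE was 0.27. DKO was lower by 0.93, 1.24 and 2.27 log2 units in the pairs of replicate 1, 2 and 3. Over replicates 1 and 2 alone the difference was -1.08 (limma, adjusted p = 0.356). Replicate 3 holds 1 array of each genotype, and whether the size differed between the batches was not tested.

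The Lefty genes were also set side by side on each array, as the log2 signal of Lefty1 minus that of Lefty2. Because Lefty1 was below the filter in DKO cells it was raised to the filter there, so the DKO values are upper limits. They were -5.79, -4.71 and -4.20 in DKO and -3.22, -2.39 and -2.40 in wild-type cells. With these limits, the difference between genotypes in Lefty1 minus that in Lefty2 was -2.23 log2 units or lower. This limit is a description with no test. An exact permutation of 3 arrays against 3 has 20 splits, too few for its p-value to fall under the threshold. Whether probes of one Lefty gene also bind the other's transcript was not tested.

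Tdgf1, the coreceptor that Nodal needs, was lower on all 3 DKO arrays by a small amount that did not pass. Its probe set (1450989_at) read 2352, 3588 and 3683 in DKO and 4068, 4271 and 3968 in wild-type cells. Replicate 1 of DKO was the lowest, and the other DKO arrays lay just under the wild-type range. The SD of the log2 values was 0.36 in DKO and 0.05 in wild-type cells (n = 3 each), and the difference was -0.38 (interval -0.96 to 0.20, limma, adjusted p = 0.646).

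Promoter windows of RefSeq (build GRCm38.p6), 250 bases before to 50 after a gene's start, were searched on both strands for 3 motifs: TGTNNATT (Foxh1), CAGAC (Smad3 and Smad4) and CTTTGAT (Tcf and Lef factors). Of the 9 genes, Nodal, Tdgf1, Acvr1b and Acvr2b were read in this way, and no window of the others, Lefty1 among them, was read. Tdgf1 was the only one of these 4 with a TGTNNATT match, which 12.2% of all 32851 windows hold, and it held 2, both on the strand opposite to the gene, beginning at bases -127 and -101 from the start, on either side of a CAGAC match at -113 (49.6% of all windows). Acvr2b held CAGAC, and Nodal and Acvr1b had no match. CTTTGAT, found in 3.73% of all windows, was in none of the 4. Over the pathway genes listed in the later paragraphs, 56 windows of 42 genes were read. TGTNNATT was found in 6 of these windows, which belong to 4 genes, Tdgf1, Otx2, Nomo1 and Tgif1. The 250 bases before the start of Tdgf1 and of Otx2 are printed because both hold the Foxh1 motif while Tdgf1 did not pass and Otx2, a target gene of the pathway, fell by 3.80. Matches are in capitals, the motifs do not overlap in these stretches, and a match is a description of the letters and not of binding.
Tdgf1, chr9:110946159-110946408, minus strand: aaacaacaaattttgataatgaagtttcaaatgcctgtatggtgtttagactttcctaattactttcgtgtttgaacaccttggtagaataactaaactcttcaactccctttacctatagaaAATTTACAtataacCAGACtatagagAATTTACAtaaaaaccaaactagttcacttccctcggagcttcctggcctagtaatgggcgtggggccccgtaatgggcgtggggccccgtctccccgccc
Otx2, chr14:48667645-48667894, minus strand, 1 of its 4 windows: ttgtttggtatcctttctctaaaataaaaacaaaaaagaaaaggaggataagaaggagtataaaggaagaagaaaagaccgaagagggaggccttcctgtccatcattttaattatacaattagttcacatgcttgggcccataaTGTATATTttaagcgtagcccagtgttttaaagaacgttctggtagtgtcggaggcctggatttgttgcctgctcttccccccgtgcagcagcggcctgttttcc

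Acvr1b, the type I receptor kinase of the complex (also called Alk4), was higher on all 3 DKO arrays. Its brighter probe set (1433725_at) read 596, 586 and 456 in DKO and 282, 227 and 314 in wild-type cells, with no overlap. The log2 means were 9.08 ± 0.22 and 8.09 ± 0.24 (SD, n = 3), and the difference of 1.00 (SE 0.25, interval 0.44 to 1.55), or 1.99-fold, did not pass (limma, adjusted p = 0.075). It passed when blocked on replicate number (adjusted p = 0.0246) and with the batch as a block (adjusted p = 0.0467). The pairs gave 1.08, 1.37 and 0.54, so the smallest difference was that of replicate 3. The second probe set of Acvr1b (1422098_at) read 4 or 5 on every array and was not tested.

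Acvr2b, a type II receptor that phosphorylates the type I receptor, did not differ detectably. Its tested probe set (1419140_at) read 35, 26 and 34 in DKO and 21, 28 and 48 in wild-type cells. The wild-type arrays enclosed the DKO arrays, and the difference was 0.04 (interval -0.70 to 0.79, adjusted p = 0.983). The other probe sets of Acvr2b read 6 to 15 on all arrays and were not tested.

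Smad2, the transducer that the activated receptors phosphorylate, had similar signal in both genotypes on both of its probe sets. The brighter (1420634_a_at) read 566, 454 and 459 in DKO and 436, 461 and 399 in wild-type cells, overlapping, with a difference of 0.19 (interval -0.33 to 0.70, adjusted p = 0.853). The dimmer (1442062_at) read 120, 132 and 119 against 135, 122 and 137, with a difference of -0.09 (interval -0.58 to 0.41, adjusted p = 0.94). Transcript level says nothing of phosphorylation, which was not measured.

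Smad7, the inhibitory Smad and a feedback target of the pathway, gave unlike sizes on its probe sets. The brighter one (1443771_x_at) read 1441, 2204 and 2072 in DKO and 1315, 1325 and 1983 in wild-type cells, overlapping, with a difference of 0.31 (interval -0.33 to 0.95, adjusted p = 0.775). The other (1423389_at) read 2108, 1221 and 988 in DKO and 767, 612 and 848 in wild-type cells, with no overlap. Its difference was 0.89 (interval 0.17 to 1.61) and did not pass (adjusted p = 0.241; adjusted p = 0.0627 when blocked on replicate number). Within pairs it was 1.46, 1.00 and 0.22, again smallest in replicate 3. Both probe sets were above 0 in every pair (1443771_x_at by 0.13, 0.73 and 0.06), whereas the Lefty feedback genes were below 0 in every pair. The share of all probe sets that keep 1 sign over the pairs is not given here.

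**Figure D2:**
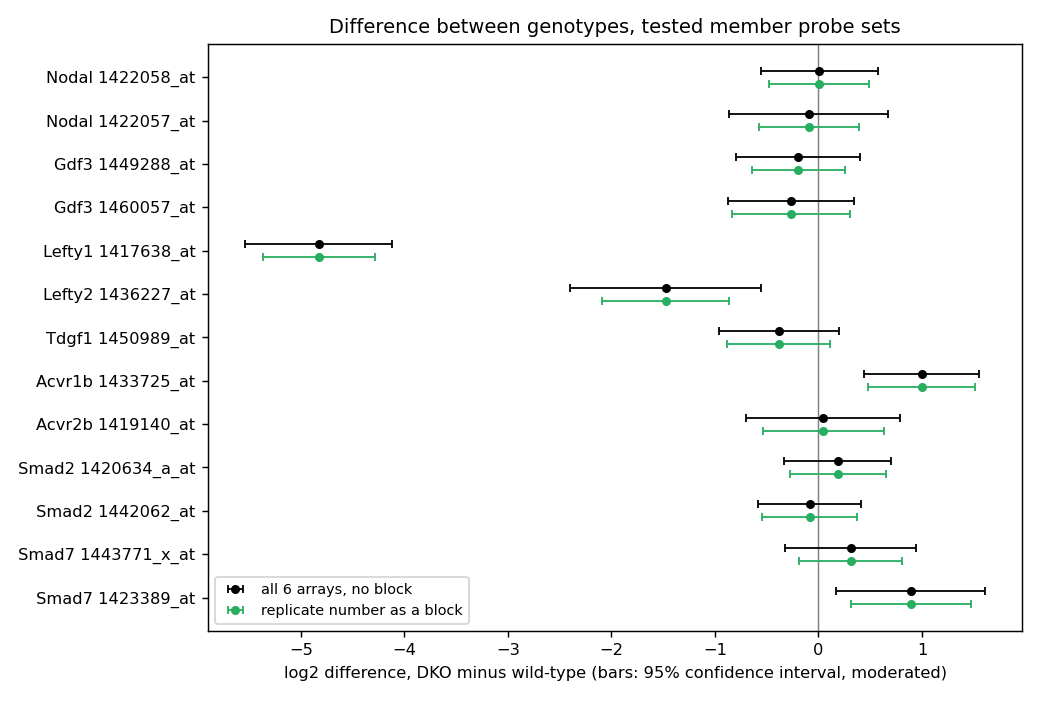
Log2 difference, DKO minus wild-type (x axis), of the 13 tested member probe sets (y axis), with moderated 95% confidence intervals, in black without a block and in green when blocked on replicate number. Lefty1 stands at -4.83; the intervals of Lefty2, Acvr1b and 1 probe set of Smad7 do not include 0, and those of the other 9 do.

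**Figure D3:**
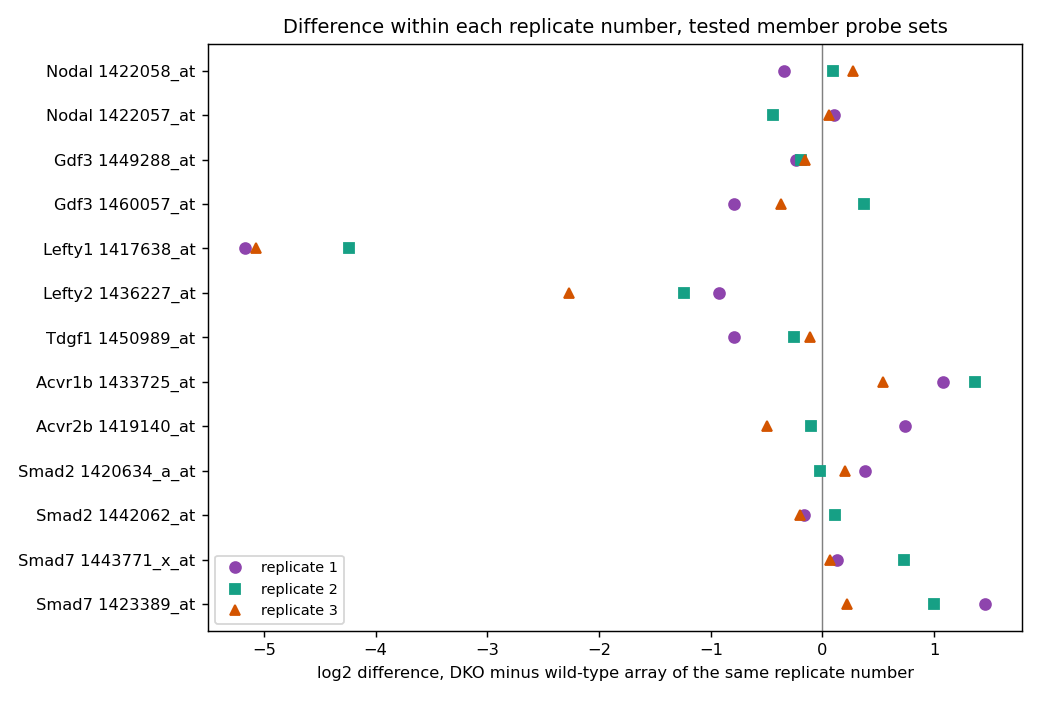
Log2 difference between the DKO and the wild-type array of the same replicate number (x axis) for the 13 tested member probe sets (y axis), 1 marker per replicate number. Lefty2 runs from -0.93 to -2.27 and Smad7 1423389_at from 0.22 to 1.46, with replicate 3 at an end of each.

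The rest of the pathway was read from lists of ligands, coreceptors and convertases, receptors, Smads and nuclear partners, inhibitors and targets, with each gene on its brightest tested probe set. Of 61 genes listed, members included, 45 were tested, 12 had only dim probe sets and 4 had no probe set of their own. Of the 45, 4 passed, all lower in DKO: Lefty1, Tgif2, Otx2 and Id1 (3 of the 36 genes that are not members). Over all 10496 genes tested 4.13% passed, 2.5% lower and 1.64% higher. Of the pathway genes 0 passed as higher by limma. At an unadjusted p under 0.05, 7 were higher and 6 lower, and 0 passed as higher without moderation. The share of all genes at an unadjusted p under 0.05 is not given here. Counts at that threshold, in this list and the others, therefore have no background beside them. With the replicate number as a block 11 of the 45 passed, 5 higher and 6 lower, where 10.7% of all genes passed, 5.07% higher and 5.63% lower; the 5 were Acvr1b, Pcsk6, Tgfbr2, Tgfbr3 and Eomes, and the 6 were Lefty1, Lefty2, Tgif2, Otx2, Id1 and Inhbb. The median log2 difference of the 45 was 0.0063, against -0.0025 over all genes.

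**Figure D4:**
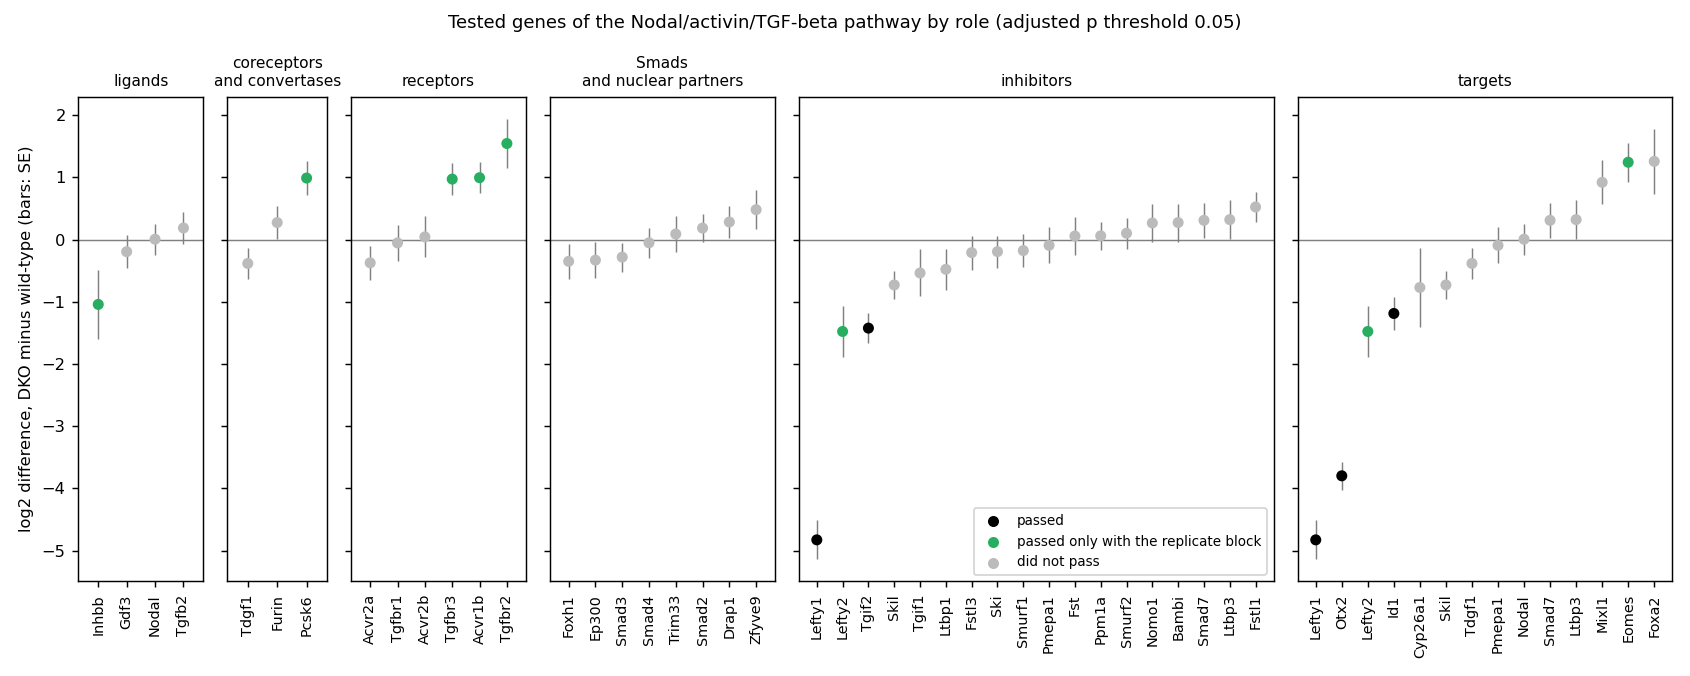
Log2 difference, DKO minus wild-type, with its moderated SE (y axis), for the 45 tested pathway genes grouped by role (some genes stand in 2 roles), in black where the gene passed, green where it passed only when blocked on replicate number, and grey otherwise. Receptors hold 3 of the genes in green, and the 8 Smads and partners lie between -0.35 and 0.48.

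Of 4 tested ligand genes 0 passed by limma (0 at an unadjusted p under 0.05, 0 without moderation). Inhbb, a subunit of activin, had the largest difference, at -1.04: it read 91, 104 and 211 in DKO and 154, 172 and 658 in wild-type cells (adjusted p = 0.512). The size rests on 1 array: without wild-type replicate 3 the difference was -0.37. The replicate 3 arrays were the highest of both genotypes, DKO was lower in each pair, and when blocked on replicate number it passed (adjusted p = 0.0258). Of 3 coreceptor and convertase genes 0 passed (1 at an unadjusted p under 0.05, 0 without moderation). Pcsk6, a proprotein convertase that can process Nodal, read 510, 396 and 320 in DKO and 198, 166 and 251 in wild-type cells. The groups did not overlap, with a difference of 0.99 (limma, adjusted p = 0.114; adjusted p = 0.0354 with the block).

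Of 6 tested receptor genes 0 passed (3 at an unadjusted p under 0.05, 0 without moderation), and with the block 3 passed, all higher in DKO: Acvr1b, Tgfbr2 and Tgfbr3. Tgfbr2, the type II receptor for TGF-beta ligands, read 156, 103 and 226 in DKO and 87, 48 and 35 in wild-type cells (difference 1.54, limma, adjusted p = 0.0875; adjusted p = 0.0177 with the block). Of 6 leave-one-out fits it passed only in that without wild-type replicate 1 (adjusted p = 0.032; 0.0963 to 0.295 in the other 5), and over replicates 1 and 2 alone the difference was 0.97 (adjusted p = 0.35). Tgfbr3, a coreceptor for TGF-beta, read 285, 261 and 210 against 153, 135 and 100 (difference 0.97, limma, adjusted p = 0.1; adjusted p = 0.0147 with the block). Neither group of arrays overlapped. Of 8 Smads and nuclear partners, with Smad3, Smad4 and Foxh1 among them, 0 passed by limma, and 0 did at an unadjusted p under 0.05, with the block or without moderation. Zfyve9, which anchors Smad2 and Smad3 at the receptor, had the largest difference, 0.48 (adjusted p = 0.632).

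Of 18 tested inhibitors, Lefty1 and Tgif2 fell and 16 did not pass. Tgif2, a homeodomain repressor that acts on Smad-bound promoters, read 144, 167 and 143 in DKO and 331, 497 and 403 in wild-type cells. The groups did not overlap on this probe set, the brighter of 2, which differed by -1.42 (limma, adjusted p = 0.0156). The other probe set differed by -1.50 and also passed. The brighter one no longer passed by limma if DKO replicate 1 or 2 or wild-type replicate 2 was omitted (adjusted p up to 0.0856).

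Of 14 tested target genes 3 fell, 0 rose and 11 did not pass. At an unadjusted p under 0.05, 3 were higher and 5 lower, and 0 passed as higher without moderation. With the replicate number as a block 1 passed as higher and 4 as lower, where 10.7% of all genes passed. Otx2, which encodes a homeodomain factor of epiblast and anterior tissues, read 39, 39 and 44 in DKO and 582, 494 and 626 in wild-type cells, a difference of -3.80 (SE 0.23, limma, adjusted p = 8.71e-05). It passed in all 6 fits that left out an array. Id1, an inhibitor of helix-loop-helix factors that responds chiefly to BMP signals, read 63, 63 and 101 against 169, 162 and 173 (difference -1.19, adjusted p = 0.0465). Id1 passed in 1 of 6 leave-one-out fits, that without DKO replicate 3 (adjusted p 0.0259 to 0.167 over the 6). Eomes, a T-box gene of mesendoderm, pointed the other way: it read 235, 189 and 291 in DKO and 135, 68 and 106 in wild-type cells, without overlap (difference 1.24, adjusted p = 0.0787; adjusted p = 0.00734 with the block).

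The genes whose pattern over the 6 arrays was most like that of Lefty1 were found by the root-mean-square distance between centred log2 profiles, among 10158 genes, each on its brightest tested probe set. They were Fndc3c1 (distance 0.41), Enpp3 (0.51), Spink1 (0.55), Myrf (0.55) and Crmp1 (0.59), all low on the 3 DKO arrays, which follows from the choice by likeness. Their order rests in part on dim DKO values. For Nodal the most alike genes were Gcnt1 (0.05), Jag1 (0.05), Zfp995 (0.07), Pde7a (0.07) and Pigf (0.07). All of them overlapped between the genotypes, as Nodal did, which likewise follows from the choice. Distances for a gene with little variation are small by construction.

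Lefty1 and Lefty2 lie close together on chromosome 1. The tested genes nearby in the RefSeq order were examined after the values of the Lefty genes were known. Tmem63a, a membrane channel gene next to Lefty1, fell as well: it read 13, 10 and 14 in DKO and 47, 45 and 37 in wild-type cells, at least 2.67-fold higher in wild-type with the dim DKO arrays raised to the filter (fitted difference -1.81, limma, adjusted p = 0.00457). It passed in all 6 fits that left out an array. Tmem63a too met the filter through its wild-type arrays alone, so these fits rest on dim DKO values. Sde2 (difference -0.29, limma, adjusted p = 0.724), Acbd3 (-0.33, adjusted p = 0.746) and Ephx1 (0.21, adjusted p = 0.876) did not pass.

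**Figure D5:**
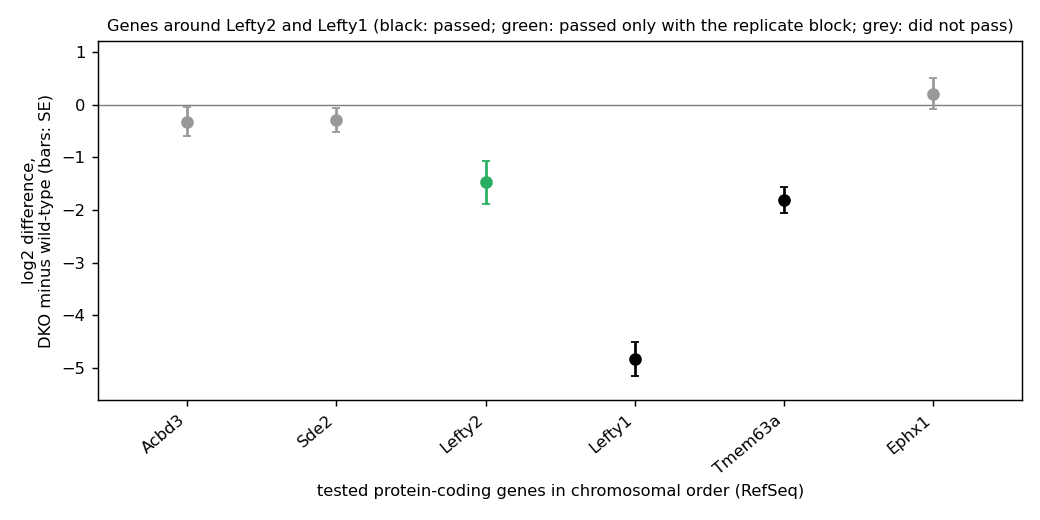
Log2 difference, DKO minus wild-type, with its moderated SE (y axis), for the tested protein-coding genes in chromosomal order around the Lefty genes (x axis, not to scale), in black where the gene passed, green where it passed only when blocked on replicate number, and grey otherwise. Lefty1 and Tmem63a passed at -4.83 and -1.81, with Lefty2 at -1.48; the fitted values of Lefty1 and Tmem63a use DKO arrays under the filter.

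Markers of other cells were read beside these values, since in bulk RNA fewer cells of a type and less RNA per cell cannot be told apart. Of 8 mesendoderm markers 4 were tested (Mixl1, Eomes, Foxa2 and Evx1) and Gsc, Wnt3, Mesp1 and Lhx1 were too dim. By limma 0 of the 4 passed (4 at an unadjusted p under 0.05, all higher in DKO, 0 without moderation), and Eomes and Evx1 passed with the block. Their summed intensity was 493 to 710 in DKO and 173 to 276 in wild-type cells. Mixl1, Eomes and Foxa2 also stand in the list of targets, where they are the 3 genes higher at an unadjusted p under 0.05. Of 10 primitive endoderm markers 9 were tested and 0 passed by limma (2 at an unadjusted p under 0.05, 0 with the block, 0 without moderation), with summed intensities of 6145 to 11732 and 5152 to 9551. Replicate 3 stood apart in this list in both genotypes, with the highest DKO sum (11732) and the lowest wild-type sum (5152). In its pair Gata4, Gata6, Sox17, Foxa2 and Pdgfra were higher in DKO by 2.08 to 3.02 log2 units. Over the other pairs these genes ran from -0.18 to 0.97. Sox7, Dab2, Lamb1 and Col4a1 were higher in DKO by 0.51 to 1.34 in the pair of replicate 3. In the other pairs they ran from -2.52 to -0.08. Dab2 read 140, 133 and 214 in DKO and 718, 761 and 150 in wild-type cells, and over replicates 1 and 2 alone it was lower in DKO by 2.44 and passed (limma, adjusted p = 0.00579). Of 10 fibroblast markers 3 were tested (Col1a1, Col1a2 and Thy1) and 0 passed (1 at an unadjusted p under 0.05, 1 with the block, 0 without moderation). Their sums were 129 to 237 in DKO and 188 to 408 in wild-type cells. The 1 was Col1a1 in both cases, lower in DKO by 1.34 (limma, adjusted p = 0.0805, and 0.00506 with the block). Col1a2 and Thy1 were higher in DKO by 0.75 and 0.44 and did not pass. The log2 ratio of 3' to 5' probe sets of the control transcripts, higher where RNA is shorter, was 2.32, 2.44 and 1.83 log2 units in DKO and 2.30, 2.00 and 1.64 in wild-type cells. The part of these cell types and of RNA integrity in the differences of the pathway genes was not tested.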

How the data were processed

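Total RNA of 6 samples (25 ng each) was amplified, biotin-labelled and hybridised to Affymetrix mouse arrays, per the labels' protocols. The authors deposited whole-number intensities, 1 for each probe set on each array; they were taken as linear and converted to log2 here with no pseudocount, so low values are coarse. Tools listed in the submitters' processing notes, with no roles, are R 2.8.0, limma 2.16.5, GCRMA 2.14.1 and GCOS; no genome build is listed in the sources used here. Of 45101 probe sets, 34958 had 1 gene, 932 several and 9211 none; none with several named a member. Symbols were updated through RefSeq (GRCm38.p6) for 34754.

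Array controls (64) were left out. DKO was compared with wild-type on 20841 probe sets by limma 3.58.1 in R 4.3.3 (lmFit, eBayes, two-sided), with Benjamini-Hochberg adjustment over all of them. Intervals are moderated. The procedure was tested on simulated data with independent errors, which held no pairing, no batch and no floor of low values. Precision is limited by the number of arrays. No 2 arrays were alike: at most 1.79% of values were identical. After subtracting genotype means, arrays sharing a number correlated at 0.35 to 0.60, so by the rule for this check the titles' replicate numbers pair the samples; the main model leaves them out. The genes, lists and the rule for named genes (all member probe sets; listed genes that passed, or else the largest difference; the 5 most alike) were chosen with earlier results of these data known; Tgfbr3, Eomes, Evx1, the primitive endoderm genes, Smad3, Smad4, Foxh1, the Lefty neighbours and the printed promoters were named after their values were seen. Alternatives changed filter, pseudocount, scaling, block, variance model, arrays and the rule for genes with several probe sets; genes were otherwise read on their brightest tested probe set.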

Additional observations from a re-analysis of the deposited data

How the results depend on the processing

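The count of member probe sets that passed (1 of 13) was the same without a filter, with a filter at a log2 of 6, with a pseudocount of 16, with quantile or median scaling, with an intensity trend, within replicates 1 and 2 alone and without any 1 array. It was 3 when blocked on replicate number, 2 when blocked on the batch and 0 when variances were not moderated (4 at an unadjusted p under 0.05 by limma). For pathway genes the count of 4 became 11 when blocked on replicate number, 7 when blocked on the batch, 2 within replicates 1 and 2 alone, 1 without moderation, 6 with the mean of a gene's tested probe sets, 3 without a filter or with an intensity trend, and 2 to 4 without 1 array (2 without DKO replicate 1, DKO replicate 2 or wild-type replicate 2). For all probe sets the count of 675 became 1995 and 1117 when blocked on replicate number and on the batch, 440 within replicates 1 and 2 alone, 31 without moderation, 373 with the stricter filter and 290 to 604 without 1 array (290 without DKO replicate 1, 381 without DKO replicate 2, 319 without wild-type replicate 2). The cause of these shifts was not tested; 2 arrays fewer and a stricter filter each leave fewer data. Signs turned only for differences near 0: Nodal 1422058_at was -0.13 within replicates 1 and 2 and ran from -0.16 to 0.13 without 1 array, Nodal 1422057_at from -0.39 to 0.13, and Acvr2b from -0.22 to 0.37. Of the other values for single probe sets, 314 kept sign and call, 15 lost a call and 11 gained one. Scaling moved the median of all probe sets by at most 0.02. Signal near background limits Lefty1 in DKO, the dimmer Nodal probe set and Acvr2b.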
